A study of Mus musculus with 6 samples.

Results

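The genes described here are 28 genes of cholesterol synthesis and of the sterol-sensing system built around the transcription factor SREBP2. They were taken by symbol from a list of mevalonate and sterol enzymes, sterol sensors and sterol carriers, out of 55471 genes in the deposited table of read counts; the list does not hold every gene of the pathway. All 28 had enough counts to be tested, among 13044 genes tested in all. The cells were a cultured mouse undifferentiated pleomorphic sarcoma (UPS) line, a soft tissue tumour line whose libraries are all labelled as metastatic, and RNA was sequenced from 3 control libraries of genotype WT (title tag AAV2) and 3 libraries of genotype Setd1a Knock Out (with another title tag). Setd1a encodes a histone methyltransferase that marks active promoters. Both groups were kept in serum-containing medium, which supplies lipoprotein cholesterol. The labels give neither the meaning of the tags nor whether the knockout is 1 clone, a pool or separate cultures, so p-values measure the spread between these libraries, which may be technical.

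Cells make cholesterol from acetyl-CoA through mevalonate, isoprenoid diphosphates, squalene and lanosterol. The level of most of these enzymes is set by SREBP2, which is held in the endoplasmic reticulum by Scap and the Insig proteins when sterols are abundant, and is cut free to enter the nucleus when they are scarce. SREBP proteins bind weakly alone and work at promoters together with NF-Y, which recognises CCAAT boxes, and Sp1, which recognises GC boxes. The liver X receptors (LXR) act in the opposite situation: when oxysterols accumulate they induce exporters such as Abca1 and Abcg1.

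Library totals lay between 17749533 and 18272622 counts, and members had between 100 and 6755 counts in each library. The Setd1a transcript was counted at 71.0, 75.3 and 73.5 CPM in control replicates 1, 2 and 3 and at 53.2, 68.7 and 56.3 CPM in the knockout replicates. CPM are counts per 1000000 counts of the library, its size adjusted by edgeR's TMM scaling. The knockout libraries all lay below the controls (log2 change -0.30 ± 0.12 SE, edgeR adjusted p = 0.426; exact two-sided permutation p = 0.1, the smallest that 3 against 3 allows), and 52.3% of its exonic bases overlap other gene models, which had at most 1 count each. Counts summed over a whole gene give no view of its coding sequence. The 10 mesenchymal markers summed to between 9755 and 9956 CPM in the controls and between 8182 and 9597 CPM in the knockouts, and all 10 were counted in every library. Macrophage markers summed to at most 22.6 CPM in a control and 28.3 CPM in a knockout, with Adgre1 and C1qa at 0 counts in all libraries. Endothelial markers reached at most 4.85 CPM, skeletal muscle markers 1.65 CPM and adipocyte markers 1.22 CPM in any library, with the endothelial gene Cldn5, the muscle factors Myod1, Myog, Myf5 and Pax7, and the adipocyte genes Plin1, Cidec and Lep at 0 counts throughout. Epithelial markers summed to between 52.9 and 91.4 CPM in the controls and between 50.1 and 95.6 CPM in the knockouts, mostly from Krt18. Among them Krt19, a keratin, had 2.05, 4.19 and 5.21 CPM in controls and 3.91, 7.33 and 9.07 CPM in knockouts and rose with the replicate block described below (edgeR adjusted p = 0.0327, 0.485 without it). Its part in the results was not tested.

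The promoters of 4 members are shown because their genes recur in the comparisons that follow: Hmgcs1, Pmvk, Nsdhl and Hsd17b7. The Hmgcs1 promoter was the 1 with an exact sterol regulatory element. Pmvk was the 1 member called with all 6 libraries, and only in fits with the replicate block. Nsdhl is a sterol enzyme with a low knockout mean, and Hsd17b7 the enzyme with the highest log2 change. Each promoter shown runs from 250 bases before to 50 after the transcription start (RefSeq, build GRCm38.p6), 5′ to 3′ on the gene's strand. Capitals mark CCAAT boxes (CCAAT, or ATTGG when on the other strand) and the match to the sterol regulatory element. They lie at chr13:119690101-119690400 (plus strand) for Hmgcs1, chr3:89454291-89454590 (plus) for Pmvk, chrX:72918271-72918570 (plus) for Nsdhl and chr1:169969156-169969455 (minus) for Hsd17b7.
Hmgcs1: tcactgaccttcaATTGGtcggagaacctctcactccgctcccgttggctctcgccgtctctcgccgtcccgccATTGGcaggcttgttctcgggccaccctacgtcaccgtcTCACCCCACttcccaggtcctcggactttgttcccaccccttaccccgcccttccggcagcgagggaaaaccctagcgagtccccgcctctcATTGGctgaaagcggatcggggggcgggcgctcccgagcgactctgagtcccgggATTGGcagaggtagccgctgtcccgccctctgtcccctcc
Pmvk: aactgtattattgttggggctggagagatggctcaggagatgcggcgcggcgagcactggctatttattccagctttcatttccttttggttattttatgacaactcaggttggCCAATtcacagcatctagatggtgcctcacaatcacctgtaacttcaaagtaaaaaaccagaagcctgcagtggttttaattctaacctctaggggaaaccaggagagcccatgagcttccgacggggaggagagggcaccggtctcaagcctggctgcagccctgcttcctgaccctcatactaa
Nsdhl: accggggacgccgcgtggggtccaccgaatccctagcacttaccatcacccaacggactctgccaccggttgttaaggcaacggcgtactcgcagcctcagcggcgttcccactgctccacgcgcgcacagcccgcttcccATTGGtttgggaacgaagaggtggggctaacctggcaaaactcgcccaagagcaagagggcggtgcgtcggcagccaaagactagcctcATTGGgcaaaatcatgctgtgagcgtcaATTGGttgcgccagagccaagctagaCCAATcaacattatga
Hsd17b7: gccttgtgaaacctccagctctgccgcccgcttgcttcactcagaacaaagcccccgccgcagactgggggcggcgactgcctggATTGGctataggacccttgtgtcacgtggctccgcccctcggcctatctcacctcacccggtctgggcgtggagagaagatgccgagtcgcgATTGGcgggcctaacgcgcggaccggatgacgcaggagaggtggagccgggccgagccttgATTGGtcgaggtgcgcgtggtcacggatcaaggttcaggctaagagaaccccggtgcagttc
The Hmgcs1 window held the element TCACCCCAC, starting 137 bases before the transcription start, between CCAAT boxes that start 176 and 45 bases before it. Its 4 CCAAT boxes were all on the opposite strand, as were the 3 of Hsd17b7, while Nsdhl had 3 on that strand and 1 on its own. The Pmvk window shown differed from these: it had a single CCAAT box, on the gene's own strand 136 bases before the start. Its GC content was 49.7%, against 59.3% for Nsdhl, 64.7% for Hsd17b7 and 65.7% for Hmgcs1. Pmvk had 2 listed starts, against 1 for each of the others, and the window nearest the 5′ end of its gene model is shown. The window at its other start (chr3:89459321-89459620) held 0 CCAAT boxes. Which start these cells use was not tested.

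Over the whole set, 23 of the 28 members had a promoter entry, and Fdps, Fdft1, Sqle, Stard4 and Npc1 had none. Searches covered both strands, and a gene counted when any of its listed promoters held the letters. CCAAT was found for 20 of 23 members and for 43.6% of the 9644 tested genes with an entry. Among the enzymes it was found for 15 of 16, the exception being Acat2, the thiolase that opens the pathway. The GC box GGGCGG was found for 21 of 23 members against 70.1% of tested genes, and the palindromic E-box CACGTG for 6 of 23, against 1157 of the 9644 tested genes. The sterol regulatory element TCACNCCAC was found for 1 of 23 members and 1.37% of tested genes. The motifs were counted separately, and a window can hold several of them. These are matches of letters and not measured binding sites.

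All 28 genes were counted in every control library. Per kilobase of exon, Srebf2 itself stood at 49.8 ± 3.47 CPM per kilobase, among the highest members, next to the lysosomal sterol carrier Npc2 at 51.9 ± 4.22 (SD, n = 3). The most abundant enzymes on this scale were the squalene synthase Fdft1 at 39.2 ± 6.02 and the lanosterol demethylase Cyp51 at 37.99 ± 2.95 CPM per kilobase. The methylsterol oxidase Msmo1 stood at 35.8 ± 3.35, and the library ranges of these 3 overlapped. Hmgcs1 followed at 33.5 ± 0.41, within the range of Msmo1. Of the exonic bases of Fdft1, 18.3% overlap Ctsb on the opposite strand, and the strand setting of the counts was not stated. The lowest enzyme was the sterol reductase Tm7sf2 at 2.25 ± 0.51 CPM per kilobase, while Dhcr7, the reductase of the last step, stood at 16.3 ± 2.16. Of the exonic bases of Tm7sf2, 12.1% are shared with Vps51 on the same strand, which had 324 to 462 counts per library. Of the related sensors, Srebf1 was below Srebf2 at 30.5 ± 3.01, and Insig2 was far below Insig1, at 4.48 ± 0.81 against 32.6 ± 3.27 CPM per kilobase. Idi2, a relative of Idi1, had 0 counts in every library, and Acat3, which resembles Acat2, had at most 6 counts. Lengths are those of all annotated exons joined, so a gene with long, rarely used exons is understated.

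**Figure D1:**
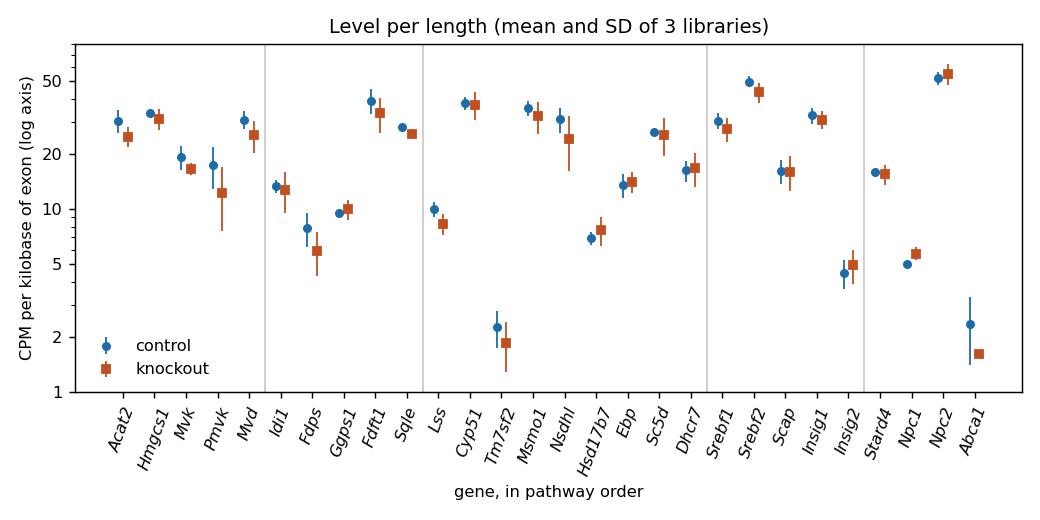
Level of each of the 28 genes per kilobase of exon (CPM per kilobase, log axis) in the control libraries (circles) and the knockout libraries (squares), mean and SD of 3, in pathway order with lines between the roles. In the controls all enzymes but Tm7sf2 (2.25) and Hsd17b7 (6.92) lie between 7.89 and 39.2 CPM per kilobase.

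Knockout was then compared with control, as the genotype labels set out. Most of the 28 members had a slightly lower knockout mean. Singly, 0 passed the test without pairing, and 1 passed with the replicate block. The edgeR quasi-likelihood test without pairing called 0 of 28 members higher and 0 lower, as it called 0% of all genes in each direction; at an unadjusted p under 0.05 it had 1 member, Abca1, and 1306 genes in all. Limma-voom without pairing also called 0 members, and so did DESeq2, which called 0.636% of all genes higher and 0.299% lower. The log2 change was below 0 for 21 of 28 members, against 49.8% of all genes tested, and its median was -0.11 over the members and 0.00066 over all genes. Of the 19 enzymes, 15 lay below 0 with a median of -0.15. Of the 10 mesenchymal markers, 8 lay below 0 and 2 above, with a median of -0.18. Over all genes, libraries of the same number deviated together for replicates 2 and 3 (r = 0.46 and 0.38). For replicate 1 this was weak (r = 0.15, against 0.053 for control 2 with knockout 1). The edgeR test with the replicate number as a block called 1 member lower, Pmvk, and 0 higher. It called 0.851% of all genes lower and 1.43% higher. DESeq2 with the block also called Pmvk lower and 0 members higher, beside 1.2% of all genes lower and 1.2% higher. A single gene gives no reading of the set. At an unadjusted p under 0.05 with the block, 9 of 28 members were lower and 0 higher, and of all 13044 genes 1255 were lower and 1297 higher. In bulk RNA, fewer cells with a transcript and less transcript per cell cannot be told apart.

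**Figure D2:**
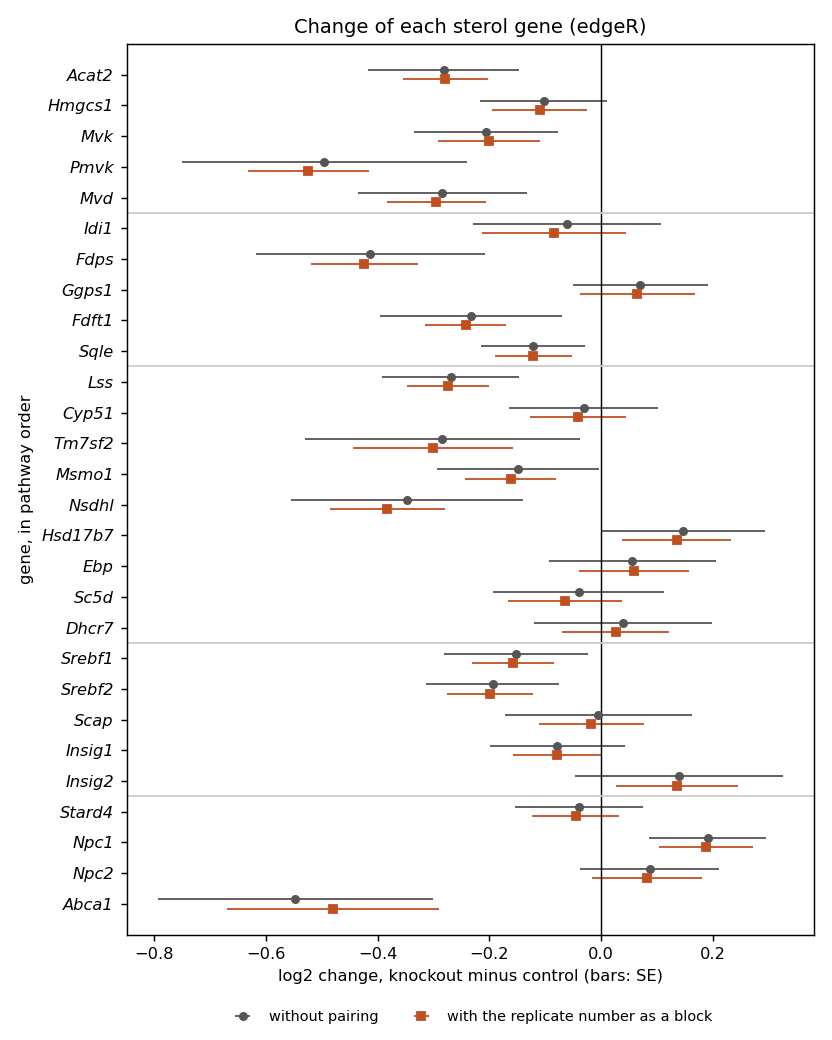
Log2 change of each member, knockout minus control, with its SE, in the edgeR test without pairing (circles) and with the replicate number as a block (squares). The enzymes of mevalonate synthesis all lie to the left of 0, Pmvk at -0.50 without and -0.52 with the block, while Hsd17b7, Insig2 and Npc1 lie to the right.

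The 5 genes of mevalonate synthesis all had a lower mean in the knockouts, and 1, Pmvk, passed the test with the block. Their summed level was 347, 356 and 406 CPM in control replicates 1, 2 and 3 and 294, 290.5 and 374 CPM in the knockout replicates, so each knockout was below its same-numbered control while the groups overlapped. Pmvk (ENSMUSG00000027952, chromosome 3, 89454541 to 89469013, plus strand), which encodes phosphomevalonate kinase, had 26.4, 24.2 and 38.5 CPM in control replicates 1, 2 and 3 and 16.02, 16.8 and 30.4 CPM in the knockout replicates. Each knockout library lay below the control of the same number, but knockout 3 lay above controls 1 and 2, so the groups overlapped. The Pmvk mean was 29.7 ± 7.70 CPM for controls and 21.1 ± 8.05 CPM for knockouts (SD, n = 3). Its log2 change was -0.50 ± 0.26 without the block (SE, edgeR adjusted p = 0.562) and -0.52 ± 0.11 with it (adjusted p = 0.0422). The blocked call also held in DESeq2 (adjusted p = 0.0248) and without replicate 1 (0.0299), and was lost without replicate 2 (0.156) or replicate 3 (0.0640). Without pairing, leaving out control 3 gave a log2 change of -0.27 and leaving out knockout 3 gave -0.86. Within pairs 1, 2 and 3 the log2 ratios of Pmvk were -0.72, -0.52 and -0.34. Acat2, the thiolase at the start of the pathway, had 68.5, 73.2 and 89.8 CPM in the controls, against 57.1, 61.1 and 72.3 CPM in the knockouts. The knockout libraries were below their same-numbered controls by a similar amount, -0.26, -0.26 and -0.31 on the log2 scale, with an adjusted p of 0.526 without and 0.0858 with the block. Mvd, the mevalonate diphosphate decarboxylase, was at 82.1% of the control mean (log2 change -0.28 ± 0.15 SE, adjusted p = 0.585, 0.108 with the block), and Mvk, mevalonate kinase, at 86.6% (adjusted p = 0.675). Hmgcs1, the synthase that makes HMG-CoA and a classic SREBP2 target, had 152, 156 and 154 CPM in the controls, a narrow spread, and 136, 129 and 165 CPM in the knockouts. Knockout 3 was the highest of all 6 libraries, and the log2 change was -0.10 ± 0.11 (SE, adjusted p = 0.874). Hmgcs1 had the log2 change closest to 0 of the 5 genes, and the difference between genes was not tested.

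Of the 5 enzymes from isopentenyl diphosphate to squalene epoxide, 1 had a higher knockout mean and 4 a lower one, and 0 passed the test. Fdps (chromosome 3, 89093588 to 89101959), the farnesyl diphosphate synthase that feeds sterols, ubiquinone and prenyl groups, had 27.2, 31.4 and 40.97 CPM in the controls, against 19.5, 22.8 and 32.4 CPM in the knockouts. Both groups had their highest library at replicate 3, and every knockout lay below its same-numbered control. The log2 change was -0.41 ± 0.21 without the block (SE, edgeR adjusted p = 0.540) and -0.42 ± 0.10 with it (adjusted p = 0.0550). The blocked adjusted p of Fdps was 0.0418 without replicate 1, 0.324 without replicate 2 and 0.0852 without replicate 3. Without pairing, its log2 change was -0.23 when control 3 was left out and -0.65 when knockout 3 was. Of its exonic bases 26.7% are shared with the gene model Gm43738, which had 0 counts. Ggps1, which lengthens farnesyl to geranylgeranyl diphosphate for protein prenylation, had 47.5, 43.1 and 44.1 CPM in the controls, against 42.7, 44.8 and 53.9 CPM in the knockouts, so the groups overlapped (log2 change 0.07 ± 0.12 SE, adjusted p = 0.937). Idi1, the isomerase before them, was at 95.8% of the control mean with knockout 3 the highest library at 57.6 CPM and knockout 2 the lowest at 36.02 CPM.

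Both squalene genes had lower knockout means. Fdft1, squalene synthase, had 158, 145 and 194 CPM in the controls, against 130, 118 and 175 CPM in the knockouts (adjusted p = 0.723, 0.106 with the block); 18.3% of its exonic bases overlap Ctsb on the opposite strand, which had 9554 to 12596 counts per library. Sqle, the squalene epoxidase that is a control point of the pathway, had 151, 156 and 159 CPM in the controls, against 141, 141 and 147 CPM in the knockouts. Sqle was the 1 member whose knockout libraries all lay below all controls, where 7.77% of all genes did so. The knockout mean was 91.9% of the control mean (log2 change -0.12 ± 0.09 SE, edgeR adjusted p = 0.765; exact two-sided permutation p = 0.1).

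Among the 9 genes that close and trim the sterol ring, 6 had a log2 change below 0 and 3 above. Nsdhl (chromosome X, 72918557 to 72958514), a dehydrogenase that removes methyl carbons from the ring, had 83.6, 77.2 and 104 CPM in the controls, against 53.2, 58.9 and 96.01 CPM in the knockouts. Knockouts 1 and 2 were the lowest libraries, and knockout 3 lay above controls 1 and 2. Its log2 change was -0.35 ± 0.21 without the block (SE, edgeR adjusted p = 0.646) and -0.38 ± 0.10 with it (adjusted p = 0.0821; DESeq2 with the block, 0.0511). Without pairing, the log2 change of Nsdhl was -0.18 without knockout replicate 1 and -0.66 without knockout replicate 3. Lss, lanosterol synthase, had 104, 100.4 and 119 CPM in the controls, against 81.8, 83.8 and 103 CPM in the knockouts, at 82.9% of the control mean (adjusted p = 0.504, 0.0831 with the block). Msmo1 was at 90.2% and Tm7sf2 at 82.1% of control, with adjusted p-values of 0.845 and 0.808. Hsd17b7, the ketosteroid reductase that works beside Nsdhl, went the other way: 32.6, 38.4 and 34.9 CPM in the controls, against 31.9, 46.2 and 39.2 CPM in the knockouts (log2 change 0.15 ± 0.15 SE, adjusted p = 0.850). Cyp51, the isomerase Ebp, the desaturase Sc5d and Dhcr7 had means between 97.2% and 104% of control, and their groups overlapped.

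**Figure D3:**
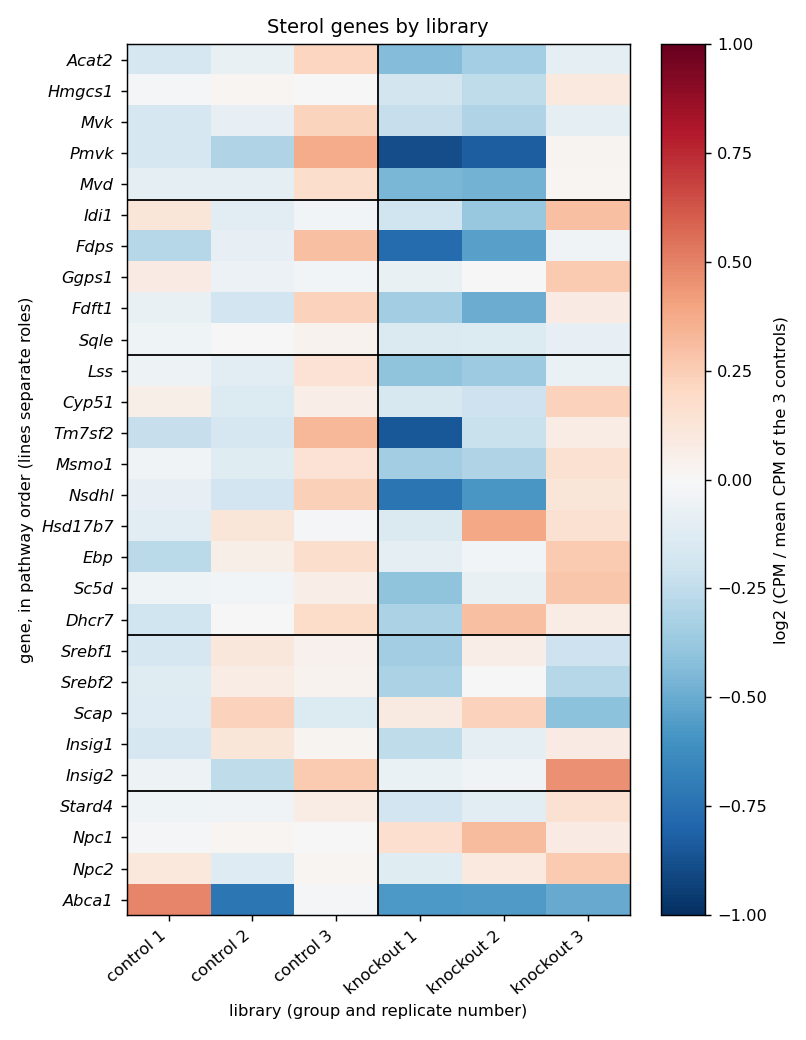
Each member in each library as log2 of CPM over the mean of the 3 controls (blue below, red above), genes in pathway order with lines between roles. Knockouts 1 and 2 are pale to dark blue through most of the enzymes, knockout 3 is near or above the control mean, and control 3 is the highest control for 15 of 19 enzymes.

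The enzymes were mostly highest in replicate 3, in both groups. Their summed level was 1632, 1607 and 1857 CPM in control replicates 1, 2 and 3 and 1366, 1442 and 1821 CPM in the knockout replicates. Replicate 3 was the highest library of each group, and knockout 3 lay above controls 1 and 2. Control 3 was the highest control for 15 of the 19 enzymes, against 36.6% of all genes tested, and knockout 3 the highest knockout for 17 of 19, against 38.3%. Replicate 3 was highest in both groups for 14 of 19 enzymes, where 21.6% of all genes showed this. Of the sensors, Srebf1, Srebf2 and Scap were instead highest in replicate 2 of both groups, and Insig2 in replicate 3 of both. The knockout mean of the summed enzymes was 90.8% of the control mean, 1543 ± 244 against 1699 ± 137 CPM (SD, n = 3). The sum was lower in the knockout in each of the 3 same-numbered pairs, while the groups overlapped, and the difference of the means was smaller than the SD of the knockouts, which includes the higher level of replicate 3.

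Within same-numbered pairs the difference was unequal. The knockout was below its control for 18 of 19 enzymes in pair 1, 16 in pair 2 and 11 in pair 3, with median log2 ratios of -0.28, -0.22 and -0.12. Over all genes 49.9%, 50.6% and 52.1% were below their control in these pairs. For 10 enzymes the knockout was below in all 3 pairs, and for 0 it was above in all 3; over all 28 members these counts were 12 and 1, and over all genes the shares were 21.6% and 19.9%. The 20 interferon response genes, by which knockouts 2 and 3 stood apart, summed to 469, 361 and 203 CPM in controls 1, 2 and 3 and 310.0, 1191 and 1076 CPM in the knockouts. Among the knockouts, both the summed enzymes and the interferon list were lowest in replicate 1, whereas among the controls replicate 3 had the highest enzyme sum and the lowest interferon sum. The part of the interferon list in the enzyme values was not tested.

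**Figure D4:**
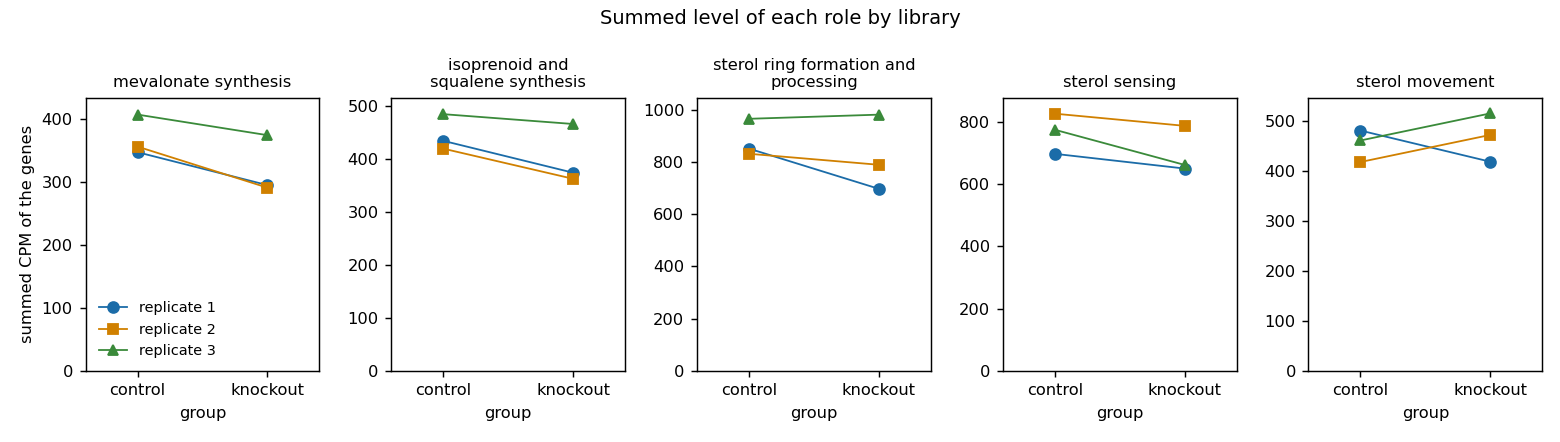
Summed CPM of the members of each role in the control and knockout libraries, with a line joining the libraries of each replicate number. In the mevalonate and isoprenoid panels all 3 lines go down and replicate 3 lies on top, whereas for sterol movement the line of replicate 1 goes down and the lines of replicates 2 and 3 go up.

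None of the 5 sensing genes passed the test. Srebf2 (chromosome 15, 82147181 to 82205379) had 329.8, 377 and 367 CPM in the controls, against 288, 357 and 294 CPM in the knockouts. Each knockout lay below its same-numbered control, and the groups overlapped through knockout 2 (log2 change -0.19 ± 0.12 SE, edgeR adjusted p = 0.664, 0.197 with the block). Srebf1, the relative that directs fatty acid synthesis, was at 89.9% of the control mean (adjusted p = 0.800), also below control in all 3 pairs. Scap, the escort that carries SREBP proteins to the Golgi, was at 99.7%. Insig1, which retains Scap and is itself induced by SREBP activity, had 89.97, 109.9 and 103 CPM in the controls, against 84.8, 95.1 and 106.9 CPM in the knockouts (log2 change -0.08 ± 0.12 SE, adjusted p = 0.931). Insig2 was at 110.2% of the control mean (adjusted p = 0.914). The block called 0 of the 5 as well, with Srebf2 the lowest in adjusted p.

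The genes that move sterols were mixed. Npc1, the lysosomal membrane protein that hands cholesterol out after lipoprotein uptake, had 56.1, 57.5 and 56.4 CPM in the controls, a narrow spread, and 63.8, 70.4 and 59.8 CPM in the knockouts. It was the 1 member whose knockout libraries all lay above all controls, where 7.49% of all genes did so, at 114% of the control mean (log2 change 0.19 ± 0.10 SE, edgeR adjusted p = 0.598, 0.256 with the block; exact two-sided permutation p = 0.1). Its soluble partner Npc2 had 303, 258 and 286 CPM in the controls, against 259, 301 and 338 CPM in the knockouts, with the groups overlapping. Stard4, a cytosolic cholesterol carrier and SREBP2 target, was at 97.3% of control. Abca1 (chromosome 4, 53030787 to 53159895), the pump that loads cholesterol onto apolipoproteins, had the log2 change farthest from 0 of the 28 without the block (Pmvk with it), and variable controls: 34.2, 14.7 and 24.2 CPM against 16.4, 16.5 and 17.2 CPM in the knockouts. The 3 knockouts lay close together, above control 2 and below controls 1 and 3. The log2 change was -0.55 ± 0.25 (SE, edgeR adjusted p = 0.498; -0.48 ± 0.19 and 0.204 with the block). The blocked test called Abca1 without replicate 2 (log2 change -0.76, adjusted p = 0.0256) and not without replicate 1 (-0.18, 0.543) or replicate 3 (-0.49, 0.316). Without pairing, its log2 change was -0.22 without control replicate 1 and -0.80 without control replicate 2.

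**Figure D5:**
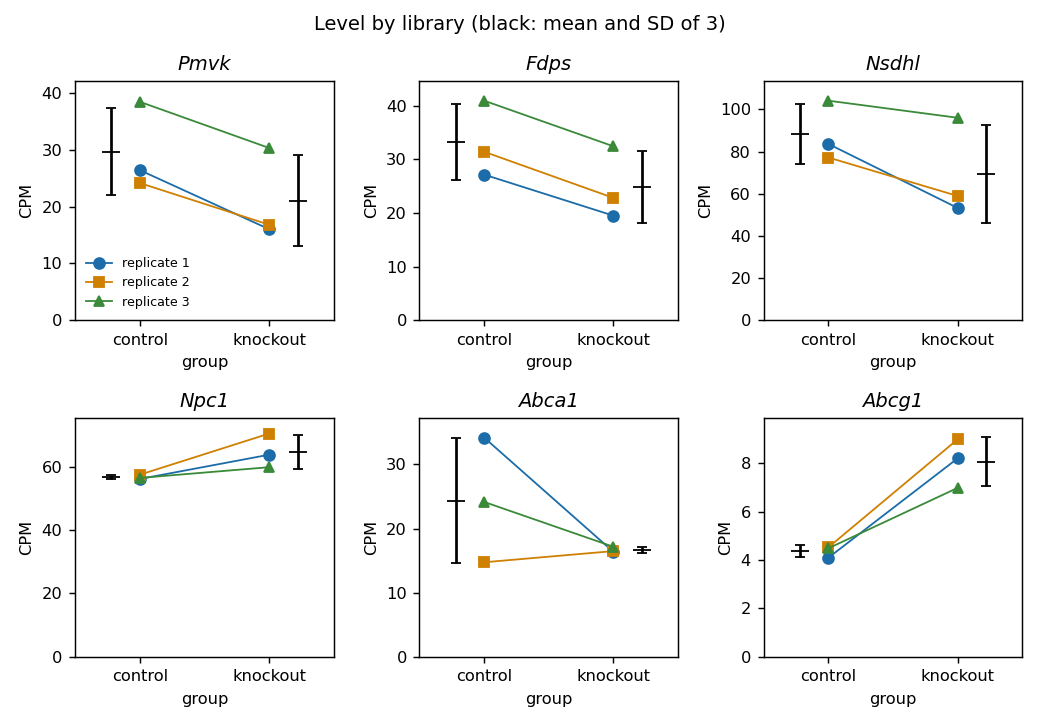
CPM in each library for Pmvk, Fdps, Nsdhl, Npc1, Abca1 and the related exporter Abcg1, lines joining libraries of the same replicate number, with the mean and SD of 3 in black. The lines of Pmvk, Fdps and Nsdhl all go down with replicate 3 on top, those of Npc1 and Abcg1 go up, and for Abca1 the 3 controls spread from 14.7 to 34.2 CPM.

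Other genes of sterol biology were read from lists. Of 12 LXR and oxysterol genes, 9 were tested, of which 4 had a log2 change below 0 and 5 above (median 0.097). The test without pairing called 0, and with the block 1 was called higher and 0 lower. That gene was Abcg1, the partner exporter that hands cholesterol to HDL. It had 4.09, 4.52 and 4.48 CPM in the controls, against 8.20, 8.99 and 6.98 CPM in the knockouts, so all knockouts lay above all controls, whereas those of Abca1 overlapped. Abcg1 rose with the block (log2 change 0.88 ± 0.15 SE, edgeR adjusted p = 0.0286) and in DESeq2 without it (adjusted p = 0.0193), while edgeR without the block gave 0.180; without replicate 2 or 3 the blocked values were 0.0670 and 0.0627. Cyp27a1, a mitochondrial sterol hydroxylase, was counted 7, 3 and 7 times in the controls and 19, 14 and 22 times in the knockouts (adjusted p = 0.214, 0.0555 with the block), and the receptor partner Rxrb was at 76.97% of control (adjusted p = 0.377). Ch25h, an oxysterol-making hydroxylase, lay under the count filter with 4, 0 and 1 counts in the controls and 7, 9 and 8 counts in the knockouts. Ch25h is known to be induced by interferon, and a link to the interferon list was not tested.

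Of 15 fatty acid synthesis genes, 13 had a log2 change below 0 (median -0.13), and 0 were called with or without the block. Scd2, a stearoyl-CoA desaturase, had 1162, 1272 and 1385 CPM in the controls, against 903, 1072 and 1099 CPM in the knockouts, all below all controls (log2 change -0.31 ± 0.13 SE, edgeR adjusted p = 0.441, 0.0644 with the block). The elongase gene Elovl6 was at 81.7% and the desaturase gene Fads2 at 79.9% of the control mean (adjusted p = 0.420 and 0.4795). DESeq2 with the block called Scd2 (adjusted p = 0.00586) and Fads2 (0.0168) lower, and edgeR did not. Summed over the list, the controls held between 4362 and 4842 CPM and the knockouts between 3866 and 4268 CPM. Of 14 genes that cut, retain or degrade SREBP and its partners, 6 lay below 0 and 8 above, and 0 were called with or without the block. Erlin2, a sterol-responsive scaffold of the endoplasmic reticulum, was at 82.9% of control with all knockouts below all controls (adjusted p = 0.534), Vcp at 89.3% (0.746) and Rnf5 at 108.8% (0.860).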

How the data were processed

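RNA of cultured mouse UPS cells was sequenced in 6 libraries. The authors deposited read counts per Ensembl gene as whole numbers, not normalized. STAR, featureCounts and DESeq with the mm10 build are named per the submitters' processing notes; versions, annotation release, strand setting and the rule for reads matching several places were not stated in these sources. Reads of overlapping genes, paralogs and pseudogene copies may be left out or misassigned. Symbols and positions came from GENCODE M21 (GRCm38), which matched 55230 of 55471 identifiers.

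The test was edgeR 4.0.16 (R 4.3.3) with TMM scaling, its low-count filter by group, the two-sided quasi-likelihood test over all 13044 genes passing, Benjamini-Hochberg adjustment and a threshold of 0.05. Alternatives used limma 3.58.1, DESeq2 1.42.0, other scalings and filters, and left-out libraries. Only the unpaired edgeR steps were tested on simulated counts, with changes larger than those of the members. The fits with the block and those by DESeq2 and limma were not tested in this way. The design was unpaired. Correlations of same-numbered libraries' deviations from their group means were 0.15, 0.46 and 0.38, all above 0.1. Blocked values are therefore given for many genes, also where no call changes, but not for all. The labels do not say what the number marks. Promoters came from RefSeq (GRCm38.p6). Members and lists were chosen with earlier results of these data known. Besides the members and Setd1a, the genes named are up to 3 of each pathway list with the smallest p without pairing, and the cell type markers at 0 counts in all libraries; Krt19, Krt18, Ch25h, Acat3 and Idi2 were chosen after their values were seen. Replicates of a group all differed by more than sampling noise (chi-square per degree of freedom 21.6 or more).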

Additional observations from a re-analysis of the deposited data

How the results depend on the processing

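Without pairing, edgeR found 0 genes past the threshold in either direction. With the replicate block, 187 were higher and 111 lower; with the block and RLE scaling 193 and 124, with the block and a mean of at least 5 CPM 124 and 83, and in DESeq2 with the block 157 and 157. Without pairing, DESeq2 gave 83 and 39 and the test with no low-count filter 62 and 12. Pmvk was the 1 member lower in each of these 4 fits with the block, and 0 members passed in the fits without it. Leaving out 1 library without pairing gave 0 to 30 genes higher and 0 to 1 lower, the calls coming without knockout replicate 1. With the block, leaving out pair 1 gave 507 higher and 207 lower with 2 members lower (Pmvk and Fdps), leaving out pair 2 gave 140 and 54 with 1 member (Abca1), and leaving out pair 3 gave 0. The fits with the block joined to a second change, and DESeq2 with the block, were chosen after seeing the data. The members' median log2 change, -0.11, lay between -0.20 (without knockout replicate 3) and -0.052 (without knockout replicate 1). Scap, at -0.0050, was at 0.0019 with a mean of at least 5 CPM. With 1 library left out, the log2 change took both signs for Acat1 (-0.16 to 0.089), Cyp51 (-0.18 to 0.059), Dhcr7 (-0.10 to 0.20), Ebp (-0.064 to 0.15), Ggps1 (-0.037 to 0.15), Idi1 (-0.29 to 0.083), Insig1 (-0.17 to 0.010), Insig2 (-0.049 to 0.29), Npc2 (-0.0098 to 0.19), Sc5d (-0.23 to 0.12), Scap (-0.13 to 0.16) and Stard4 (-0.15 to 0.040). With the block, signs also differed without pair 1 for Idi1 (0.037), Cyp51 (0.047), Sc5d (0.083) and Stard4 (0.0045), without pair 2 for Idi1 (0.022), Dhcr7 (-0.099) and Insig1 (0.00042), and without pair 3 for Ggps1 (-0.059), Scap (0.094) and Npc2 (-0.010). The other members kept their sign in every alternative run. With 3 libraries a group, changes of the size seen here were mostly within the spread between libraries.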

Other observations

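Of 16 genes of cholesterol transport and storage, 6 had a log2 change below 0 and 10 above, with 0 called with or without the block. Lrp8, a lipoprotein receptor, had 169, 163 and 159 CPM in the controls, against 141, 133 and 141 CPM in the knockouts, all below all controls (log2 change -0.24 ± 0.09 SE, edgeR adjusted p = 0.426, 0.103 with the block). Nceh1, which hydrolyses stored cholesteryl ester, had 46.9, 49.7 and 52.6 CPM in the controls, against 57.1, 58.2 and 60.1 CPM in the knockouts, all above all controls (log2 change 0.23 ± 0.10 SE, adjusted p = 0.483, 0.162 with the block). Stard3, a late endosomal sterol carrier, was at 120.8% of the control mean (adjusted p = 0.576).

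Of 15 genes that use isoprenoids for prenylation, dolichol and ubiquinone, 6 lay below 0 and 9 above, with 0 called by edgeR with or without the block. Coq2, the prenyltransferase of ubiquinone synthesis, had 37.9, 40.3 and 42.1 CPM in the controls, against 20.9, 29.5 and 34.4 CPM in the knockouts, all below all controls (log2 change -0.50 ± 0.17 SE, edgeR adjusted p = 0.356, 0.0535 with the block; DESeq2 with the block, 0.0178). Nus1, a subunit of the enzyme that makes dolichol precursors, was at 110.1% (adjusted p = 0.721) and the geranylgeranyl transfer gene Pggt1b at 117.7% of control (adjusted p = 0.582), each with all knockouts above all controls.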
